A study of Mus musculus with 25 samples.

Results

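The genes described are 10 members of the growth factor systems that drive liver regeneration: the EGF-family ligands Nrg1, Areg, Ereg, Hbegf and Tgfa, the receptors Egfr, Erbb2 and Erbb3, and the ligand and receptor pair Hgf and Met. They were chosen by name with earlier results of these data known, and all 10 were found among the 56980 genes of the deposited count table. Counts of members called are therefore set beside the share of all genes as description only. The 25 libraries hold poly-A RNA from livers of male C57BL/6J mice aged 8 weeks at the start, collected after 12 weeks and sequenced in 2 dated batches. The first batch has 6 groups of 3 mice. Normal diet was plain chow and water. FAT-MASH, a regimen that models metabolic dysfunction-associated steatohepatitis, joined a chow with 1.25% cholesterol, 41% sucrose and fat at 21.1% to sugar water (23.1 g/L fructose and 18.9 g/L glucose) and carbon tetrachloride, a liver toxin, injected each week. The other 4 groups had that regimen with mannose, a simple sugar, in the water. Under prevention 5% or 20% mannose was given for all 12 weeks, and under therapy 5% or 20% was given for the last 6 weeks. The second batch has normal diet alone (2 mice), with 5% mannose (2 mice) and with 20% mannose (3 mice). The mice carried no transgene or deletion according to the labels, and diet and toxin came together, so the effect of either cannot be told apart.

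In these pathways a ligand binds a receptor tyrosine kinase on the cell surface, and the receptor then signals through adaptors, RAS and the kinase ERK to growth genes. TGF alpha, amphiregulin (Areg), epiregulin (Ereg) and HB-EGF (Hbegf) are made as membrane proteins, are cut free by proteases and bind EGFR, while neuregulin 1 (Nrg1) binds ERBB3 and ERBB4, and ERBB2 has no ligand and works as a partner. HGF, a product chiefly of stellate and endothelial cells in the liver, is secreted as an inactive precursor, is cut by serine proteases and binds MET on hepatocytes. EGFR and MET signalling are known as the main drivers of hepatocyte division after part of the liver is removed.

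Total counts per library ran from 31298299 to 56010646 in the first batch and from 35971380 to 49752882 in the second. Each level is given as CPM, the usual read count scaled for depth, with TMM scaling of the libraries inside each batch. The label liver was borne out by 7 hepatocyte marker genes, which summed to between 63800 and 115000 CPM in every library. The 3 mice of a group are the replicates as labelled, and neither cages nor litters are given. Verbs of change are kept for genes whose Benjamini-Hochberg adjusted p, over all genes of an edgeR quasi-likelihood fit, was under 0.05. Log2 fold changes carry their SE. In whole-liver RNA, fewer cells of a type and less RNA per cell cannot be told apart.

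The receptors Egfr, Erbb3 and Met were the abundant members, while Erbb2 and most ligands were scarce. Per kilobase of exon, the normal-diet means of the first batch were 48.1 CPM for Egfr, 28.8 for Erbb3 and 11.1 for Met, against 3.88 for Tgfa and 0.752 for Hgf. Erbb2 (0.365 CPM per kilobase) and Hbegf (0.323) came next, Nrg1 (0.0248) and Ereg (0.0244) were lower, and Areg had 0 counts in all 3 libraries. In FAT-MASH with 20% therapy the same scale gave 6.93 for Tgfa, 3.35 for Areg, 2.65 for Hgf and 1.66 for Nrg1, while Egfr was at 20.0, Erbb3 at 19.1 and Met at 7.87. The order of the receptors was Egfr, Erbb3, Met, Erbb2 in normal diet and in 20% therapy, and Erbb2 lay below Tgfa and Hgf in both.

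**Figure D1:**
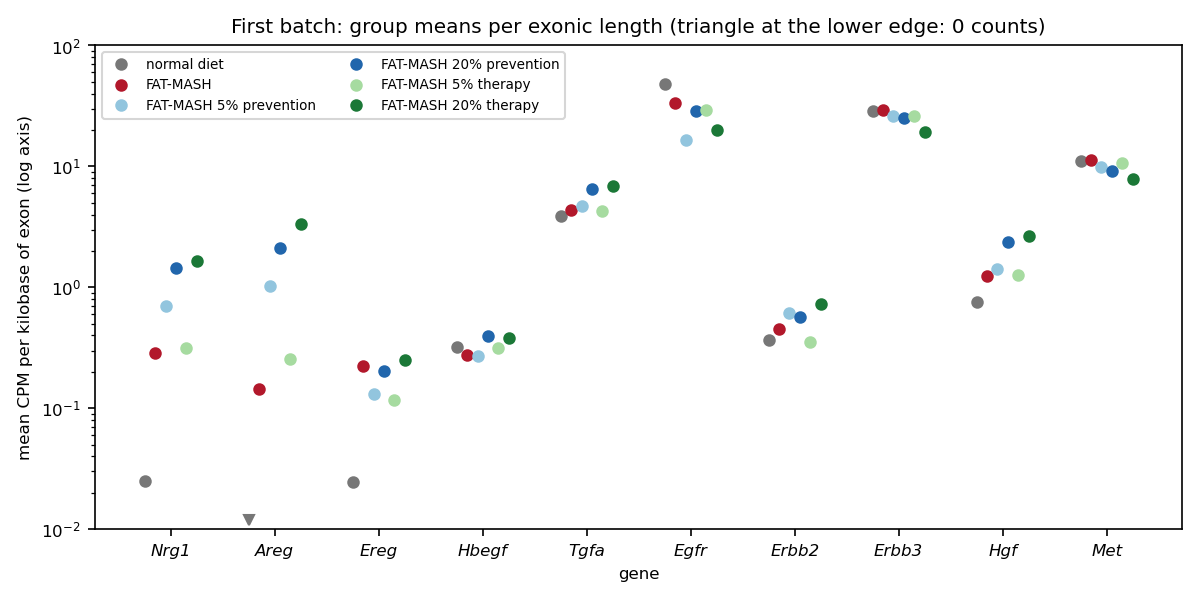
Mean level of each member in the 6 groups of the first batch, in CPM per kilobase of exon on a log axis, with 1 point per group of 3 libraries and a triangle at the lower edge for 0 counts. Egfr, Erbb3 and Met lie highest, between 7.87 and 48.1, and Nrg1 and Areg span the widest range between groups.

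On the regimen alone 3 ligands passed. Of these, Nrg1 kept its call in all 14 alternatives, Ereg in 11 of 14 and Areg in 4 of 13. Against normal diet, Nrg1, Areg and Ereg rose in FAT-MASH and 0 of the 10 members fell, where 7.81% of all 19571 genes tested rose and 5.92% fell. Against FAT-MASH and with TMM scaling, the members that rose with 20% mannose were ligands and those that fell were receptors. Compared with FAT-MASH, 20% prevention had Nrg1, Areg, Tgfa and Hgf higher and Met lower (background 6.83% higher and 8.26% lower), and 20% therapy had the same 4 ligands higher and Erbb3 and Met lower (background 10.2% higher and 11.3% lower). With 5% mannose, 0 of 10 members passed under prevention (background 2.27% in either direction) and 0 of 10 under therapy (background 0.0358%). Library totals alone in place of TMM moved the median of all genes to 0.200 and 0.303. The split was then 4 higher and 0 lower for 20% prevention and 5 higher and 0 lower for 20% therapy. The member gained for 20% therapy was the receptor gene Erbb2 (0.99, adjusted p = 0.0329 by edgeR). In that fit 4015 and 6520 of the 19571 genes were called in either direction, against 2952 and 4195 with TMM. The 4 mannose comparisons share the 3 FAT-MASH libraries and are therefore given side by side. The median log2 fold change of the 10 members was 0.23 for FAT-MASH against normal diet, 0.44 for 20% prevention and 0.57 for 20% therapy, beside medians of 0.03, 0.02 and 0.00 over all genes tested (0.01 for 5% prevention and -0.01 for 5% therapy).

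**Figure D2:**
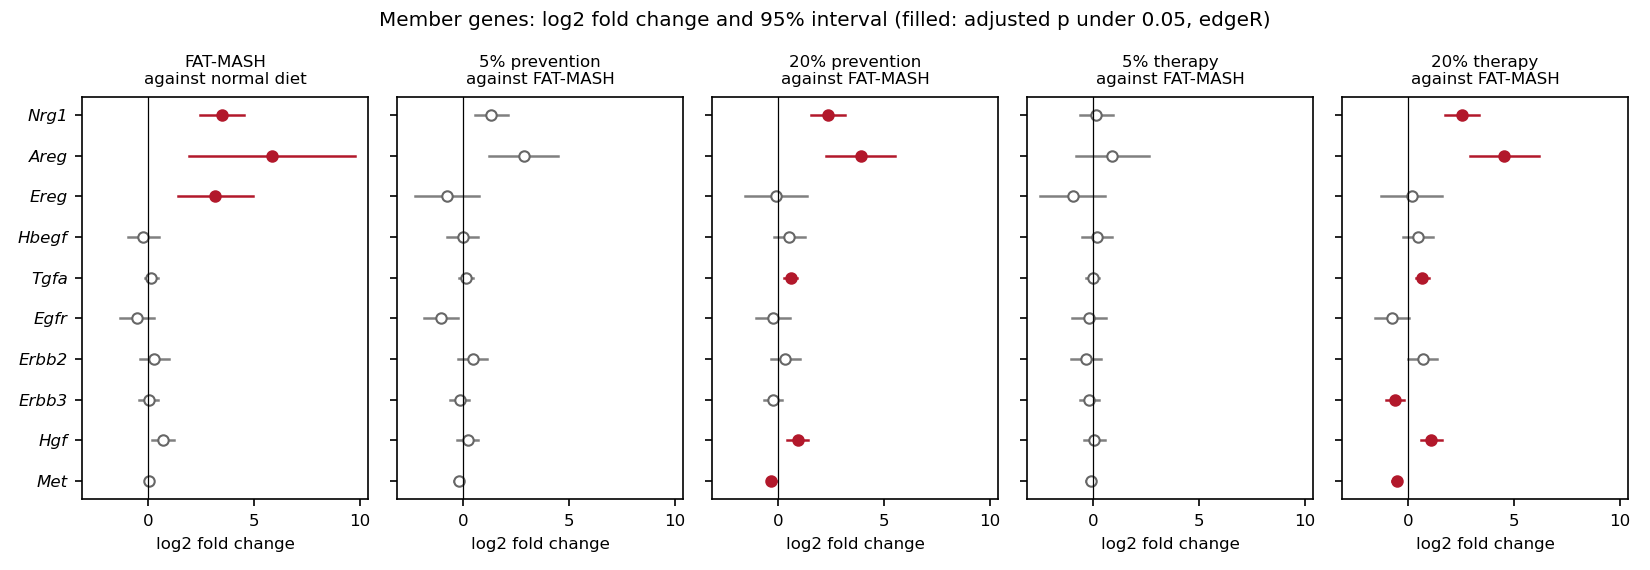
Log2 fold change of each member with its 95% interval in 5 comparisons of the first batch, filled where edgeR's adjusted p was under 0.05. Filled points to the right of 0 are ligands in every panel, and the filled points to the left are Met under 20% mannose and Erbb3 under 20% therapy.

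Nrg1, which encodes the ERBB3 ligand neuregulin 1 (ENSMUSG00000062991.10, GRCm39 chr8:32304579-33374825, minus strand), stood at 0.301, 0.350 and 0.496 CPM in the normal-diet libraries of the first batch. The FAT-MASH libraries had 3.00, 4.64 and 5.49 CPM. All 3 lay above every normal-diet library, and the log2 fold change was 3.49 ± 0.49 (11.2-fold, adjusted p = 8.2e-05 by edgeR). Prevention with 20% mannose gave 15.6, 20.0 and 31.3 CPM and therapy with 20% gave 19.4, 26.1 and 31.5 CPM. None of these 6 libraries overlapped FAT-MASH. The rise over FAT-MASH was 2.36 ± 0.38 on the log2 scale for prevention (5.13-fold, adjusted p = 0.000351) and 2.56 ± 0.38 for therapy (5.90-fold, adjusted p = 6.51e-05, edgeR).

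With 5% mannose Nrg1 was at 7.18, 8.56 and 16.8 CPM under prevention and at 2.85, 3.58 and 8.11 CPM under therapy. The prevention libraries lay above all FAT-MASH libraries but missed the threshold (1.32 ± 0.37, adjusted p = 0.0685 by edgeR), a call that was gained with DESeq2 (adjusted p = 0.0455) and with library totals alone (adjusted p = 0.0493, alternatives 1.62e-09 to 0.351). The therapy libraries overlapped FAT-MASH (0.16 ± 0.37, 95% interval -0.62 to 0.94). In order of mean level the groups ran from normal diet (0.382 ± 0.101 CPM, SD, n = 3) through FAT-MASH (4.38 ± 1.27), 5% therapy (4.85 ± 2.85), 5% prevention (10.9 ± 5.22) and 20% prevention (22.3 ± 8.06) to 20% therapy (25.7 ± 6.05). Of the 5 neighbouring pairs in that order, normal diet and FAT-MASH passed edgeR's test. The other 4 did not: the adjusted p was 0.994 for FAT-MASH and 5% therapy, 0.195 for 5% therapy and 5% prevention, 0.178 for 5% and 20% prevention and 0.896 for 20% prevention and 20% therapy.

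Areg encodes amphiregulin, an EGFR ligand (ENSMUSG00000029378.6, GRCm39 chr5:91287458-91296291, plus strand). It had 0 counts in the 3 normal-diet libraries of the first batch, and 6, 6 and 8 counts in FAT-MASH (0.114, 0.169 and 0.240 CPM). In the second batch normal diet replicate 5 also had 6 counts (0.118 CPM, scaled in that batch). Against a floor of 3 counts per library, 0.0885 CPM, the FAT-MASH mean was at least 1.97-fold higher, a bound that covers counting error only and that is lost (0.986) with a floor of 6 counts, as for 3 read pairs counted as 2 reads each. By edgeR it rose (adjusted p = 0.0456), but that call was lost with voom (adjusted p = 0.123), with the replicate block (0.0626), with all 25 libraries in the fit (0.0507) and without any 1 of the 6 libraries (0.0594 to 0.114). Over all alternatives the adjusted p ran from 0.000109 to 0.123. Even numbers made up 79.0% of all counts from 1 to 8, and the sources used here do not say whether a read pair counts once, so the number of fragments behind a count is not known.

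The 20% groups stood clear of that range for Areg. Prevention with 20% mannose had 2.45, 2.49 and 2.79 CPM (103 to 158 counts), and therapy with 20% had 2.82, 4.67 and 4.73 CPM (153 to 231 counts). All 6 libraries lay above every library of FAT-MASH. The log2 fold change over FAT-MASH was 3.90 ± 0.77 (14.9-fold, adjusted p = 0.00218 by edgeR) for prevention and 4.56 ± 0.78 (23.6-fold, adjusted p = 0.000382) for therapy. Over normal diet the means were at least 29.1-fold and 46-fold higher against the floor of 3 counts, and at least 14.6-fold and 23-fold against that of 6. With 5% mannose the libraries were spread: 0.422, 0.925 and 2.38 CPM under prevention (2.86 ± 0.77, adjusted p = 0.0603 by edgeR, 0.00245 by DESeq2, alternatives 5.59e-06 to 0.304) and 0, 0.230 and 0.708 CPM under therapy (0.91 ± 0.81, adjusted p = 0.940 by edgeR).

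Upstream sequence is shown for Areg and Tgfa, the 2 members among the EGFR ligands that rose with 20% mannose. RefSeq windows on GRCm38.p6, another build than the GRCm39 of the counts, matched 6 of the 10 members. Each sequence holds the 250 bases before the RefSeq start, both on the plus strand, Areg at chr5:91139349-91139598 and Tgfa at chr6:86194972-86195221. Capitals mark letters found in a search of both strands for TGACGTCA (the cAMP response element), TGANTCA (the AP-1 site), TATAAA (the TATA box) and GGGCGG (the GC box).
Areg: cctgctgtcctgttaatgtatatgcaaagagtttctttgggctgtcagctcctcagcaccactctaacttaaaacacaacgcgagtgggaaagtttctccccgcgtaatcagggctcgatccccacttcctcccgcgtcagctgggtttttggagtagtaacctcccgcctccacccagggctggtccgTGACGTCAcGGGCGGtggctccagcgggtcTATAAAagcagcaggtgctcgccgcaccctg
Tgfa: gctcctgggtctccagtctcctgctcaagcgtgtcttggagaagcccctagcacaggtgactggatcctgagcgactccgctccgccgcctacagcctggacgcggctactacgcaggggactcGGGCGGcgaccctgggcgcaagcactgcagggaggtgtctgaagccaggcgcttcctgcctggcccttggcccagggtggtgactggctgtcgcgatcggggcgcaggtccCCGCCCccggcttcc
The Areg window held TGACGTCA beginning 61 bases before the start, GGGCGG at 52 bases and TATAAA at 31 bases. The Tgfa window held 2 matches to GGGCGG, 1 on each strand, and no match to the other letters. Among 32851 windows of the same length, TGACGTCA was present in 1.55%, TGANTCA in 6.75%, TATAAA in 12.4% and GGGCGG in 32.7%. These are matches of letters, and no binding was measured.

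Tgfa, which encodes TGF alpha, the ligand of EGFR that hepatocytes themselves make (ENSMUSG00000029999.15, GRCm39 chr6:86172205-86252701, plus strand), was the most abundant ligand member. It was at 21.2, 26.8 and 27.4 CPM in normal diet and 26.3, 28 and 29.9 CPM in FAT-MASH, groups that overlapped (0.16 ± 0.15, adjusted p = 0.572 by edgeR). Prevention with 20% mannose gave 36.4, 37.7 and 53.0 CPM, and therapy with 20% gave 40.9, 42.1 and 51.9 CPM. Neither group overlapped FAT-MASH or the 5% groups, which ran from 25.1 to 33.0 CPM. The log2 fold change over FAT-MASH was 0.59 ± 0.15 for prevention (1.51-fold, adjusted p = 0.0107 by edgeR) and 0.68 ± 0.15 for therapy (1.60-fold, adjusted p = 0.00271). The prevention call was lost without its replicate 2, the library at 53.0 CPM (0.40, adjusted p = 0.0945, alternatives 0.000207 to 0.0945).

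Ereg and Hbegf, 2 further EGFR ligands, passed in no comparison of mannose groups on the regimen with all libraries in the fit. Ereg, epiregulin (GRCm39 chr5:91222481-91241505), had 0.0522 to 0.140 CPM in normal diet and 0.458, 0.732 and 1.56 CPM in FAT-MASH, a rise of 3.17 ± 0.85 on the log2 scale (adjusted p = 0.0165 by edgeR). Leaving out FAT-MASH replicate 2, or either of normal diet replicates 1 and 2, ended that call (adjusted p from 0.0528 to 0.0751), and the alternatives ran from 0.000424 to 0.0751. Normal-diet controls of the second batch had 0.327 and 0.552 CPM of Ereg in their own scaling, and the higher value exceeds the lowest FAT-MASH library. The mannose groups on the regimen ranged from 0.153 to 1.48 CPM and overlapped FAT-MASH in each case. Between 20% and 5% therapy Ereg differed by 1.14 ± 0.72 (adjusted p = 0.322 by edgeR), and it passed without 5% therapy replicate 1 (2.52, adjusted p = 0.0378, alternatives to 0.650). Hbegf lay between 0.906 and 2.25 CPM over the 18 libraries of the first batch and passed in 0 of the 10 comparisons made there. Its largest mean was 1.93 ± 0.117 CPM (SD, n = 3) in 20% prevention, where all 3 libraries were above FAT-MASH (0.954, 1.46 and 1.59 CPM) without passing edgeR's test (0.54 ± 0.34, adjusted p = 0.336).

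**Figure D3:**
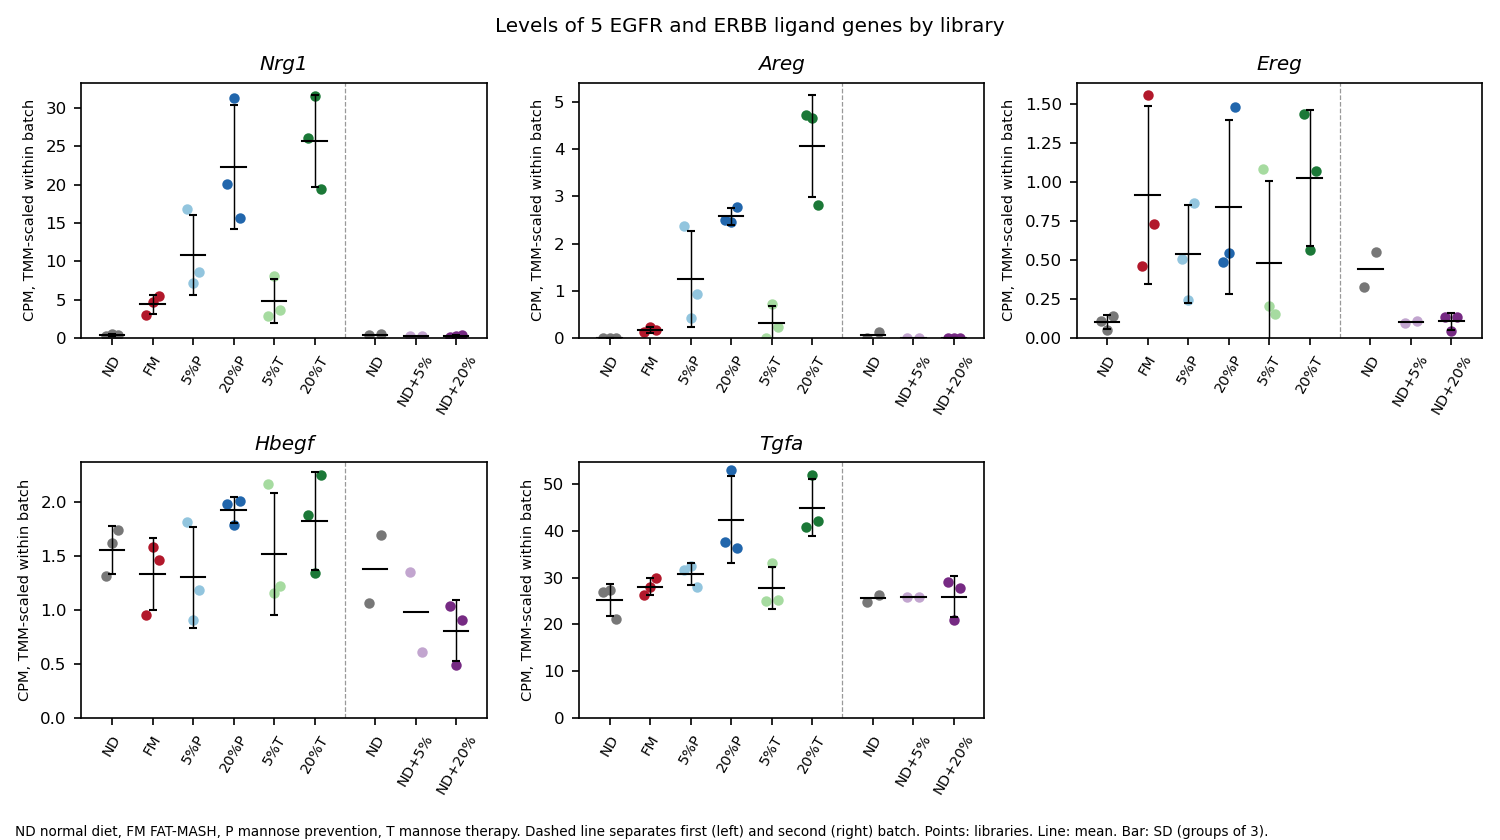
Levels of the 5 ligand genes of EGFR and the ERBB receptors by library, in CPM scaled within a batch, with the mean and, for groups of 3, the SD (cut at 0 where it would pass below). Nrg1, Areg and Tgfa are highest in the 2 groups with 20% mannose on the regimen, while Ereg and Hbegf overlap between FAT-MASH and the mannose groups except for Hbegf in 20% prevention.

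Areg lies in a cluster of EGF-family genes on chromosome 5, and its neighbours differed. Ereg ends 45952 bases before Areg and did not pass under mannose. Btc, betacellulin, a ligand of EGFR and ERBB4, lies 208828 bases beyond Areg and went from 5.41 ± 1.55 CPM in FAT-MASH to 13.6 ± 3.53 in 20% prevention (1.33 ± 0.30, adjusted p = 0.0051 by edgeR) and 14.9 ± 4.78 in 20% therapy (1.47 ± 0.30, adjusted p = 0.00148). Every 20% library (10.9 to 20.2 CPM) was above every FAT-MASH library (3.78 to 6.87 CPM). Epgn, the fourth gene of the cluster, had 0 counts in 15 of the 18 libraries and 6 to 12 in the others, all of which had 20% mannose.

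Among the receptors, Egfr spread widely within groups. It had 315, 590 and 730 CPM in normal diet, 291, 350 and 503 CPM in FAT-MASH, and in the second batch 184 and 895 CPM in the 2 mice on normal diet without mannose, a 4.86-fold gap. In the same 2 mice the gap was 1.05-fold for Erbb3 and 1.28-fold for Met. The second-batch data columns carry a number, and Egfr differed between the numbers 11 and 13. Libraries numbered 11 had 895, 723 and 865 CPM (without mannose, with 5% and with 20%). Those numbered 13 had 184, 206 and 240 CPM in the same order. The only library numbered 12, with 20% mannose, had 705 CPM. Prevention with 5% mannose had 155, 172 and 229 CPM, all under FAT-MASH, and did not pass edgeR's test (-1.04 ± 0.39, adjusted p = 0.177). It passed with only the groups compared in the fit (adjusted p = 0.0207) and without the filter on low counts (6.98e-15), with alternatives up to 0.456. Prevention with 20% ran from 171 to 513 CPM and therapy with 20% from 120 to 374 CPM, and both overlapped FAT-MASH (adjusted p = 0.745 and 0.181 by edgeR). The 20% therapy difference passed without its replicate 3, the library at 374 CPM (-1.33, adjusted p = 0.0219, alternatives 3.91e-08 to 0.511). The low end of that range is again the fit without the filter. In that fit alone Egfr also passed for FAT-MASH against normal diet (adjusted p = 0.000334 by edgeR) and in each dose, schedule and dose by timing comparison.

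Erbb3, the partner that binds neuregulin (GRCm39 chr10:128403392-128425521), was at 161, 183 and 186 CPM in FAT-MASH and at 87.2, 123 and 134 CPM with 20% therapy, with no overlap. The log2 fold change was -0.62 ± 0.21 (0.651 of the FAT-MASH level, adjusted p = 0.0403 by edgeR). This call was lost with library totals alone (-0.32, adjusted p = 0.231) and without any FAT-MASH library or 20% therapy replicate 1 or 2 (0.0542 to 0.189), with alternatives from 1.07e-05 to 0.231. With 20% prevention Erbb3 had 123 to 187 CPM and did not pass (-0.24 ± 0.21). Erbb2, the receptor without a ligand (GRCm39 chr11:98303296-98328542), stayed between 1.51 and 4.72 CPM in the first batch and passed in none of the 4 mannose comparisons with FAT-MASH, except for 20% therapy with library totals alone (0.99, adjusted p = 0.0329, alternatives to 0.444). With therapy it had 2.69 to 4.72 CPM at 20% and 1.76 to 1.88 CPM at 5%, a rise of 1.03 ± 0.33 (adjusted p = 0.0363 by edgeR). That call was lost with all 25 libraries in the fit or without any of 5 of the 6 libraries (all but 20% therapy replicate 2), with adjusted p from 0.0531 to 0.152 (alternatives from 0.00891).

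Hgf (ENSMUSG00000028864.8, GRCm39 chr5:16758493-16825150, plus strand) rose and its receptor Met (ENSMUSG00000009376.16, GRCm39 chr6:17463799-17573979, plus strand) fell with 20% mannose. Hgf had 4.93, 5.38 and 5.89 CPM in normal diet and 6.79, 9.62 and 10.1 CPM in FAT-MASH. The groups did not overlap, but the difference missed the threshold (0.70 ± 0.24, adjusted p = 0.0601 by edgeR) and passed with DESeq2 (adjusted p = 0.0368), with only the groups compared (0.0374) and without FAT-MASH replicate 1 (0.0377), with alternatives from 0.00456 to 0.187. Prevention with 20% mannose had 15.4, 16.1 and 19.2 CPM and therapy with 20% had 14.6, 20.3 and 22.2 CPM, all above FAT-MASH. Over FAT-MASH the log2 fold change was 0.94 ± 0.24 (1.92-fold, adjusted p = 0.00991 by edgeR) and 1.11 ± 0.24 (2.16-fold, adjusted p = 0.00191). Leaving out FAT-MASH replicate 1 ended the prevention call (0.78, adjusted p = 0.0616, the range of alternatives starting at 9.57e-06). With 5% mannose Hgf was at 9.42 to 11.0 CPM under prevention and 6.28 to 13.8 CPM under therapy, both overlapping FAT-MASH. Of its exonic bases 6.74% are shared with the overlapping gene Gm43489, which counting without strand cannot separate.

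Met had 76.8 to 89.0 CPM in normal diet and 81.6, 83.4 and 97.6 CPM in FAT-MASH. It was at 68.0, 68.3 and 72.9 CPM with 20% prevention and at 56.5, 59.0 and 65.9 CPM with 20% therapy, below every FAT-MASH library. It fell by 0.53 ± 0.10 on the log2 scale with therapy (0.691 of the FAT-MASH level, adjusted p = 0.000674 by edgeR) and by 0.33 ± 0.10 with prevention (0.797 of that level, adjusted p = 0.0318). Both falls depend on the scaling: with library totals alone they were -0.23 (adjusted p = 0.0919) and -0.15 (adjusted p = 0.360), while the median of all genes then stood at 0.303 and 0.200. The prevention call was also lost without a filter on low counts (adjusted p = 0.0938), with only the groups compared (0.0569) and when FAT-MASH replicate 3 (0.150) or prevention libraries 2 (0.102) or 3 (0.0896) were left out. The alternatives began at 0.0188 for prevention and 1.61e-05 for therapy.

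**Figure D4:**
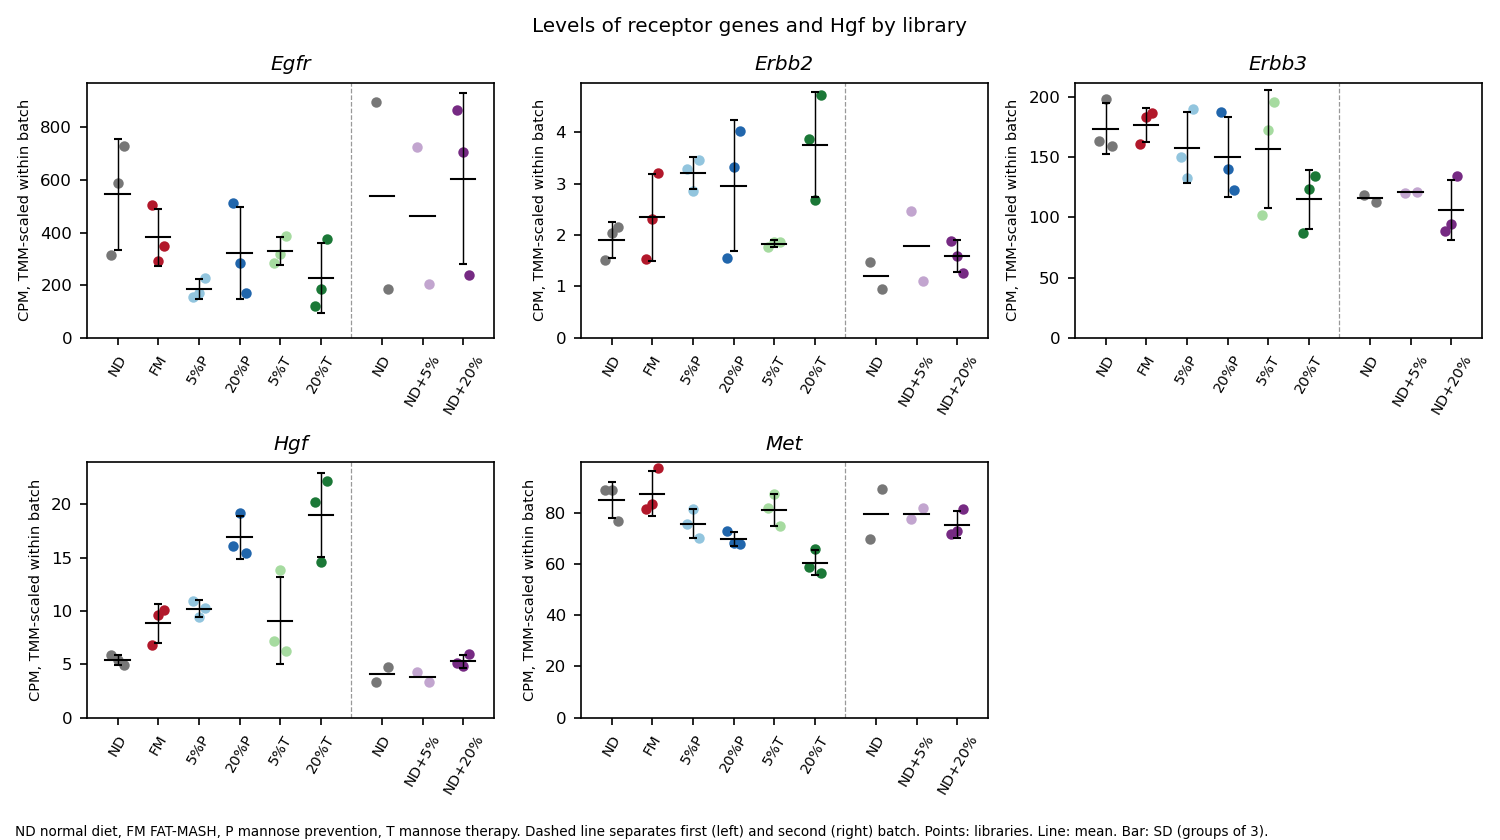
Levels of the 3 EGF-family receptors, Hgf and Met by library, in CPM scaled within a batch, with the mean and, for groups of 3, the SD. Hgf is highest and Met lowest in the groups with 20% mannose on the regimen, and Egfr spreads from 184 to 895 CPM between the 2 controls of the second batch.

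The 2 doses were also compared directly. Against 5% therapy, 20% therapy had 5 members higher and 1 lower (background 8.33% higher and 9.33% lower): Nrg1 (2.40 ± 0.38), Areg (3.65 ± 0.72), Tgfa (0.70 ± 0.15), Hgf (1.06 ± 0.24) and Erbb2 rose, and Met fell (-0.43 ± 0.10, adjusted p = 0.00524 by edgeR, 0.278 with library totals alone, which left 5 members higher and 0 lower). With library totals alone 5627 of 19571 genes were called in either direction, against 3455 with TMM. Under prevention 0 of 10 members passed between 20% and 5% (background 0.445%), with Nrg1 at 1.04 ± 0.36 (95% interval 0.29 to 1.78), Hgf at 0.72 ± 0.24 and Tgfa at 0.46 ± 0.15. The difference between these dose effects was itself tested, and 0 of 10 members passed (background 2.17%). It was 1.37 ± 0.51 for Nrg1 (adjusted p = 0.175 by edgeR) and 2.61 ± 0.94 for Areg (adjusted p = 0.168), and both passed without 5% therapy replicate 2 (adjusted p = 0.0327 and 0.0417, with alternatives from 3.01e-05 to 0.455 and from 0.00293 to 0.459), the library with the highest Nrg1, Areg and Hgf of its group.

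No member passed between the schedules. Therapy against prevention gave 0 of 10 members at 5% mannose (background 0.194%) and 0 of 10 at 20% (background 0.0818%). At 20% the differences were 0.20 ± 0.35 for Nrg1 (95% interval -0.53 to 0.94), 0.66 ± 0.62 for Areg (-0.65 to 1.97), 0.17 ± 0.23 for Hgf (-0.31 to 0.65) and 0.09 ± 0.15 for Tgfa (-0.23 to 0.40). At 5% the difference for Nrg1 was -1.16 ± 0.37 (adjusted p = 0.195 by edgeR), and it passed without 5% therapy replicate 2 (-1.74, adjusted p = 0.0328, alternatives 4.49e-07 to 0.595).

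On normal diet no member passed with mannose at either dose. Compared with the 2 normal-diet mice of the second batch, 0 of 9 members tested passed with 5% mannose (background 0%) and 0 of 9 with 20% (background 0.00542%), and Areg missed the filter on low counts. Over all genes, edgeR called 0 with 5% and 1 with 20%, while 1039 and 1066 had an unadjusted p under 0.05 and DESeq2 called 41 and 65. Nrg1 had 0.388 and 0.473 CPM in the controls, 0.243 and 0.278 CPM with 5% and 0.135, 0.200 and 0.362 CPM with 20%. Tgfa had 24.8 and 26.3 CPM in the controls, 25.9 CPM in both mice on 5% and 20.9, 27.8 and 29.0 CPM on 20%. Hgf had 3.39 and 4.77 CPM in the controls and 4.84, 5.09 and 5.98 CPM on 20%, a difference of 0.38 ± 0.27 (95% interval -0.21 to 0.97). Areg had 0 counts in all 5 mice given mannose and 0 and 6 counts in the controls. Ereg was at 0.327 and 0.552 CPM in the controls and at 0.136 CPM or less with mannose (-2.03 ± 1.38 for 20%, adjusted p = 0.947 by edgeR). The normal-diet mice of the first batch stood lower for Ereg than those 2 controls, at 0.0502 to 0.135 CPM against 0.373 and 0.630 when all libraries were scaled together.

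Whether 20% mannose given for 12 weeks acted differently on the 2 diets was also tested. The fit held all 25 libraries with a term for batch. The regimen side of this difference lies wholly in the first batch and the normal-diet side wholly in the second. A mannose effect that differs by diet and one that differs by batch therefore cannot be told apart. The difference passed for Nrg1 (3.24 ± 0.68, adjusted p = 0.00645 by edgeR) and for Areg (8.49 ± 2.22, adjusted p = 0.0294), both larger on the regimen, and for 0 of 10 members in the other direction (background 2.26% larger and 3.41% smaller on the regimen). For Nrg1 the call was lost with voom (3.35, adjusted p = 0.271, alternatives from 1.74e-11). For Areg the normal-diet side of the difference rests on 6 counts in 1 mouse: without that library, normal diet replicate 5, the value was 3.89 (adjusted p = 1.0). The Areg call was also lost with voom (adjusted p = 0.186) and without FAT-MASH replicate 1 or 20% mannose replicate 2 or 3 on normal diet (0.0525 to 0.0587), or with the column number of the second batch as a block (adjusted p = 0.0571), and its alternatives began at 2.47e-05. Tgfa (0.58 ± 0.22, adjusted p = 0.134) and Hgf (0.56 ± 0.35, 95% interval -0.16 to 1.28) did not pass. Tgfa passed with library totals alone (0.80, adjusted p = 0.0351, alternatives to 0.358).

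Other ligands and receptors of the 2 systems were listed too. Of 9 listed genes 6 could be tested in the first batch, and under 20% mannose Btc alone passed, as given above. Over all genes 6.83% rose with 20% prevention and 10.2% with 20% therapy. In FAT-MASH against normal diet 1 of the 6 rose and 1 fell, where 7.81% of all genes rose and 5.92% fell. On the regimen without mannose the receptor gene Mst1r, whose protein resembles MET, rose from 0.173 ± 0.0928 to 1.35 ± 0.275 CPM (2.97 ± 0.53, adjusted p = 0.000903 by edgeR), and Mst1, which encodes its ligand, fell from 188 ± 17.6 to 122 ± 6.07 CPM (-0.62 ± 0.13, adjusted p = 0.00357).

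Genes that release or activate the ligands moved in both directions with 20% mannose. Of 14 tested, 6 rose and 3 fell with prevention (median 0.51, background 6.83% higher and 8.26% lower). With therapy 6 rose and 3 fell (median 0.80, background 10.2% higher and 11.3% lower). The 3 that fell were the liver-made proteases Hgfac, Hpn and Plg, of which Hgfac and Hpn cut the HGF precursor into its active form. Hgfac went from 247 ± 16.7 CPM in FAT-MASH to 119 ± 3.40 with prevention (-1.05 ± 0.15, adjusted p = 0.000118 by edgeR) and 104 ± 6.03 with therapy (-1.25 ± 0.15, adjusted p = 7.06e-06). Hgf transcript thus rose in the same libraries in which Hgfac fell, and HGF protein was not measured. Rhbdf2, a partner of the shedding protease ADAM17, rose by 0.80 ± 0.14 with therapy. On the regimen alone 4 of the 14 rose and 0 fell (background 7.81% higher and 5.92% lower), among them Rhbdf1 (1.04 ± 0.18), Rhbdf2 (0.47 ± 0.14) and the protease gene Adam10 (0.43 ± 0.13).

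Feedback inhibitors of the receptors were mixed too. Of 14 tested, 3 rose and 2 fell with 20% prevention (median 0.43, background 6.83% higher and 8.26% lower). With 20% therapy 4 rose and 2 fell (median 0.34, background 10.2% higher and 11.3% lower). With 14 genes, 2 falls are not far from these shares. Dusp5, a phosphatase that acts on ERK, rose from 1.90 ± 0.472 CPM in FAT-MASH to 3.77 ± 0.215 with prevention (0.98 ± 0.32, adjusted p = 0.0423 by edgeR) and 5.91 ± 1.18 with therapy (1.63 ± 0.32, adjusted p = 0.000967). Spry1, an inhibitor of receptor tyrosine kinase signalling, rose by 0.61 ± 0.19 and 0.94 ± 0.19. Lrig3, a membrane protein of the LRIG family, fell in both (-0.67 ± 0.20 and -1.04 ± 0.20), as did Spry4, a relative of Spry1 (-0.96 ± 0.31 and -0.91 ± 0.30). Adaptors and kinases of the RAS and ERK chain changed little in size: of 16 tested, 3 rose with 20% prevention (median 0.15) and 5 rose and 1 fell with 20% therapy (median 0.10), led by Ptpn11 (0.60 ± 0.10 and 0.50 ± 0.10) and Nras (0.56 ± 0.10 and 0.54 ± 0.10). The background shares are those given for the feedback inhibitors.

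Some early growth factor response genes rose with 20% mannose and none of the list fell. Of 16 tested, 5 rose and 0 fell with prevention (median 1.01), 10 rose and 0 fell with therapy (median 1.62), 3 rose with 5% prevention (median 0.83) and 0 moved with 5% therapy (median 0.04). Over all genes 6.83% rose with 20% prevention and 10.2% with 20% therapy. In either direction 2.27% passed with 5% prevention and 0.0358% with 5% therapy. Ccnd1, the cyclin of the entry into the cell cycle, went from 17.1 ± 5.23 CPM in FAT-MASH to 140 ± 18.3 with 20% prevention (3.03 ± 0.29, adjusted p = 5.67e-06 by edgeR) and 178 ± 45.2 with 20% therapy (3.39 ± 0.30, adjusted p = 3.20e-07). It was at 8.47 ± 1.15 CPM in normal diet, at 23.3 ± 5.87 with 5% therapy and at 10.3 to 11.8 CPM as group means in the second batch. The transcription factor genes Jun (1.13 ± 0.22 and 1.56 ± 0.22) and Fosl2 (0.92 ± 0.15 and 1.03 ± 0.15) rose with both 20% schedules. In the test between diets 5 of the 16 rose more on the regimen (background 2.26%), among them Ccnd1 (3.09 ± 0.40) and Jun (2.49 ± 0.40).

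**Figure D5:**
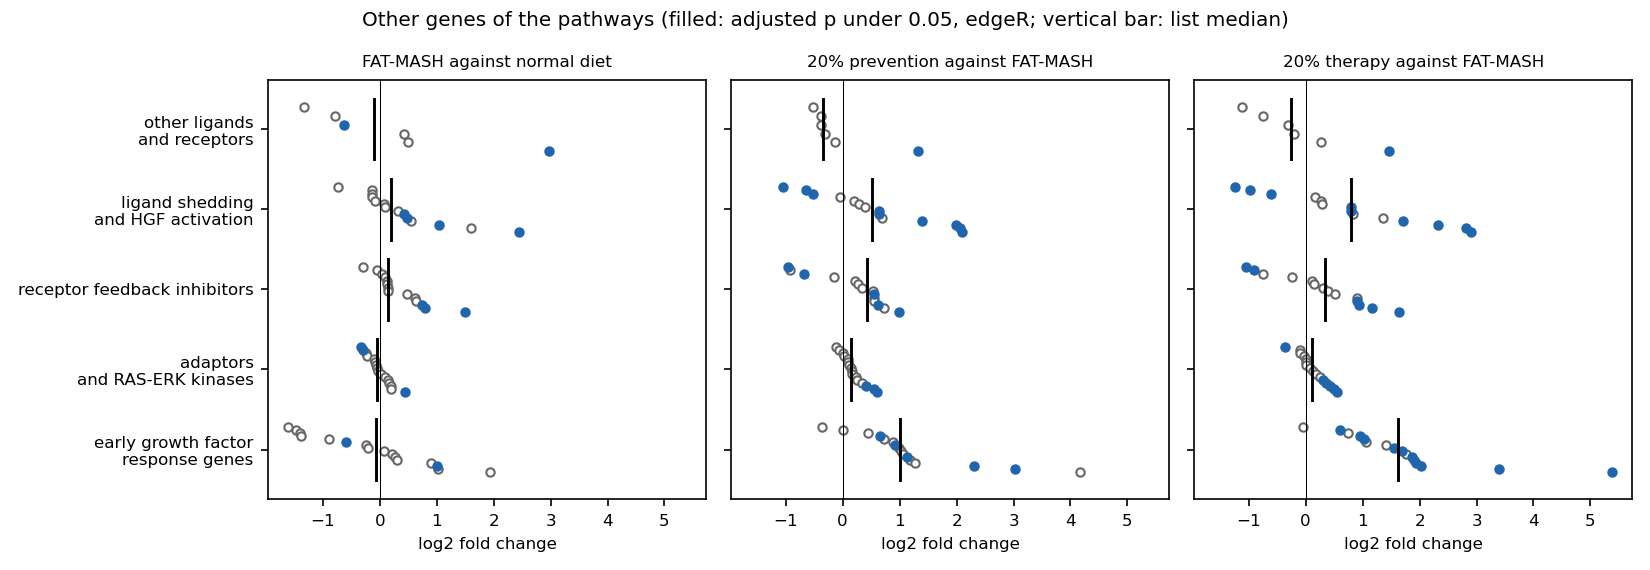
Log2 fold change of each tested gene of 5 pathway lists in 3 comparisons, filled where edgeR's adjusted p was under 0.05, with a vertical bar at the list median. Early response genes shift to the right under 20% mannose (medians 1.01 and 1.62), while the lists of ligand shedding with HGF activation and of feedback inhibitors hold filled points on both sides of 0.

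Several cell type and growth markers moved with the groups compared, and their part in the results above was not tested. Over all genes 7.81% rose in FAT-MASH against normal diet, 6.83% with 20% prevention and 10.2% with 20% therapy. In either direction 2.27% passed with 5% prevention. Beside the rises of Nrg1, Areg and Ereg in FAT-MASH against normal diet, macrophage markers rose in 5 of 8 cases (172 to 187 CPM summed in normal diet and 319 to 502 in FAT-MASH), mesothelial markers in 4 of 5 (3.57 to 5.75 and 26.8 to 40.4) and neutrophil markers in 2 of 5 (2.94 to 4.55 and 9.35 to 11.2). All 12 proliferation genes rose with 20% prevention and all 12 with 20% therapy, and their summed level was 13.4 to 20.1 CPM in FAT-MASH, 101 to 116 in 20% prevention and 144 to 444 in 20% therapy. With 5% prevention, where no member passed, 7 of the 12 rose (39.2 to 57.6 CPM). Cholangiocyte markers, of bile duct cells, rose in 5 of 8 and 6 of 8 cases and summed to 25.5 to 32.2 CPM in FAT-MASH, 45.0 to 96.9 in 20% prevention and 44.1 to 133 in 20% therapy. Beside the levels of Hgf, markers of stellate cells and fibroblasts rose in 7 of 10 cases on the regimen (292 to 350 CPM in normal diet and 527 to 682 in FAT-MASH), in 0 of 10 with 20% prevention (551 to 985) and in 2 of 10 with 20% therapy (572 to 1130). Endothelial markers summed to 296 to 333 CPM in FAT-MASH, 290 to 314 in 20% prevention and 259 to 322 in 20% therapy.

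Beside the receptors, hepatocyte markers fell in 4 of 7 cases with 20% prevention and 6 of 7 with 20% therapy, and their sum went from 92600 to 104000 CPM in FAT-MASH to 77200 to 95500 and 63800 to 71200. Over all genes 8.26% fell with 20% prevention and 11.3% with 20% therapy. Beside Areg, which several immune cells make, neutrophil markers rose in 0 of 5 cases with 20% prevention (9.35 to 11.2 CPM in FAT-MASH against 12.0 to 24.3) and in 3 of 5 with 20% therapy (16.2 to 26.0). Macrophage markers changed in 0 of 8 and T and NK cell markers in 0 of 7 under either, and the 6 mast cell and basophil markers summed to at most 0.218 CPM in every 20% library of the first batch. None of the markers matched had 0 counts in all 25 libraries.

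Genes with the most similar profile over the 18 first-batch libraries were named by the root mean square difference of centred log2 CPM among genes with a mean of at least 1 CPM, for the 8 members that passed in a first-batch comparison. For Nrg1 these were Ttc39a (0.63), Ly6d (0.69) and Cxcl5 (0.70), beside an SD of 2.02 for Nrg1 itself. For Areg they were Cxcl5 (0.71), Ccnb1 (0.79) and Vmn2r3 (0.81), beside an SD of 2.38. For Hgf they were the basement membrane genes Lamc1 (0.21) and Col4a1 (0.23) with Abhd2 (0.23) between them, beside an SD of 0.66. Tgfa was nearest to Nbeal1 (0.13), Agfg1 (0.14) and Nras (0.14), and Met to Ppa2, Pttg1ip and Oxsm (0.09 each). Ereg was nearest to Smpd3 (0.62), Fhl2 and Airn, Erbb2 to Rassf2 (0.26), C1qtnf7 and Cryab, and Erbb3 to Ipmk (0.12), Khnyn and Zfp871. The 18 libraries share their groups, so such nearness describes profiles and carries no test.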

How the data were processed

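RNA-seq of 25 liver libraries was analysed from 1 table of whole-number counts per gene. The authors deposited these counts without normalization. Per the submitters' processing notes, STAR aligned the reads to GRCm39 and featureCounts 2.0.6 counted them, while version 2.0.1 of featureCounts stands in the table itself, with a GENCODE annotation of release 31, per the file headers. Strand, pair and multi-mapping settings are not given there, so overlapping genes cannot be separated by strand. Of 56980 genes, 52073 were paired with a symbol. Library totals ran from 31298299 to 56010646 counts, and no library appeared to be deposited more than once (within groups, chi-square over its degrees of freedom was at least 21.2).

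Tests used edgeR 4.0.16 under R 4.3.3 (TMM scaling, filterByExpr, glmQLFit, glmQLFTest). The 18 libraries of the first batch (19571 genes), the 7 of the second (18462 genes) and all 25 with a batch term (21373 genes) were fitted separately. SE is the size of the log2 fold change divided by the root of F, and 95% intervals use the t distribution of the fit. Alternatives were DESeq2 1.42.0, voom of limma 3.58.1 with quality weights, RLE size factors, library totals, no filter, fewer or more libraries in the fit, the replicate number (in the second batch the column number) as a block and each library left out in turn. On simulated counts with known changes, 53% of 2-fold and 75% of 4-fold changes were recovered for 20% therapy against FAT-MASH over 19571 genes. The shares were 39% and 56% for 20% mannose on normal diet over 18462 genes, and 28% and 45% for the difference between diets over 21373 genes. Each simulation changed 100 genes by 2-fold and 100 by 4-fold. Among the unchanged genes 2, 10 and 3 were called falsely, in the same order.

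The members and lists were chosen with earlier results of these data known. Any of the 10 members may be named in any comparison. From each pathway list at most 4 called genes with the smallest p are named, and from marker lists only counts and sums. A gene of the shedding and activation list is counted but not reported by name here. Of 8 hepatocyte markers 7 were matched. Upstream windows come from RefSeq on GRCm38.p6, with no coordinates converted.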

Additional observations from a re-analysis of the deposited data

Results flagged for a closer look

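Areg stood at 0.135 CPM in normal diet replicate 5, of the second batch, when all 25 libraries were scaled together, and at 0 in the other 4 normal-diet libraries without mannose. It was 1 library far from the others among 20 ends tested over the 10 members, and the 5 libraries span both batches. With the other 4 at 0, the rule marks any count above 0, so no rate of chance applies to this mark. The value rests on 6 counts.

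The effect of 20% mannose over 12 weeks differed between the regimen in the first batch and normal diet in the second. By edgeR's test of the difference itself, it did so for Nrg1 (3.24 on the log2 scale) and for Areg (8.49). Diet and batch cannot be told apart in this difference. The Areg value takes its size from libraries at 0 counts and was 3.89 (adjusted p = 1.0) without normal diet replicate 5.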

How the results depend on the processing

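No result reversed. Nrg1 for FAT-MASH against normal diet and for both 20% groups, Areg for both 20% groups, and Hgf and Tgfa for 20% therapy kept their calls in all 14 alternatives. The number of members called moved by over 1.5 times as follows. Without a filter on low counts it was 5 for FAT-MASH against normal diet (3 in the report), 3 for 5% prevention, 4 for 20% against 5% prevention, 3 for therapy against prevention at 5%, 1 for that at 20% and 3 for dose by timing (0 in the report for each of these 5). Of the 33409 genes in that fit 3150, 1254, 819, 862, 702 and 1364 were called, in the same order. For 5% prevention DESeq2 gave 2, library totals alone 1, and only the groups compared 1 (over all genes 940 and 547 of 19571, and 386 of 17274). With voom the difference between diets gave 0 in place of 2 (over all genes 1047 of 21373). Within 1.5 times, the unfiltered fit gave 4 for 20% prevention (5 in the report), 7 for 20% therapy (6) and 8 for 20% against 5% therapy (6), DESeq2 gave 4 for FAT-MASH against normal diet, and library totals alone gave 3 for the difference between diets. All-gene calls were 3349, 4365 and 3835 of 33409 without the filter, 3250 of 19571 with DESeq2 and 1800 of 21373 with library totals. The causes were not tested. With each library left out in turn the counts were 1 to 3 for FAT-MASH against normal diet, 0 to 1 for 5% prevention, 3 to 5 for 20% prevention, 5 to 7 for 20% therapy and for 20% against 5% therapy, 0 to 1 for therapy against prevention at 5%, 0 to 2 for dose by timing and 1 to 2 for the difference between diets. Over all genes these fits called, in that order, 1825 to 2107, 124 to 353, 1962 to 2529, 3109 to 3830 and 2316 to 3347. For the remaining comparisons they called 2 to 202, 72 to 588 and 548 to 1247. Library totals alone left 4 members higher and 0 lower with 20% prevention, and 5 higher and 0 lower with 20% therapy. Of all 19571 genes that setting called 4015 and 6520 in either direction. Over all genes DESeq2 called 940 for 5% prevention (445 in the report) and 85 for 5% therapy (7), and library totals alone called 6520 for 20% therapy (4195).

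Same-numbered libraries of the first batch did not deviate together over all genes (45 pairs, median correlation -0.0168, 1 over 0.1). This gave no sign that the numbers pair mice, but it cannot exclude a shared cage, litter or handling. With the replicate block the counts of members called were 2 for FAT-MASH against normal diet, 5 for 20% prevention, 6 for 20% therapy and 6 for 20% against 5% therapy. Of all 19571 genes it called 2454, 2801, 3988 and 3236, in the same order. In the second batch the titles give the controls numbers of their own, but the data columns share the numbers 11 and 13 across the 3 groups. A block on these, chosen after seeing the data, called 0 members with 5% mannose, 0 with 20% and 1 (Nrg1) for the difference between diets, and over all genes it called 16 with 5% (0 in the report) and 32 with 20% (1). For the difference between diets it called 1128 of 21373 genes (1211 in the report). Over all genes, libraries of the same number in the second batch had a median correlation of 0.0486 (6 pairs, none over 0.1). In a group of 2 the deviations from the mean mirror each other, so these pairs repeat values. The check therefore cannot exclude an effect of the number. Genes of a few counts, such as Areg in FAT-MASH, are limited by depth.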
